A study of Mus musculus with 4 samples.

Results

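The subject here is a set of 10 liver genes known as targets of the transcription factor NRF2: Cbr3, Gpx2, Nqo1, Srxn1, Txnrd1, Gclc, Gclm, Hmox1, Abcc4 and Ephx1. They were chosen by name from the known targets, with their log2 signals on these same 4 arrays already in view, so their values are given as a description and carry no test. All probe sets whose only gene symbol in the platform annotation was one of these names were taken, which gave 17 of 45037 probe sets. Each of the 10 genes had at least 1 probe set reaching the array median on at least 1 array and entered, among 12493 genes that did so out of 18193 named ones.

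NRF2, encoded by Nfe2l2, is held at a low level in unstressed cells because KEAP1 presents it for ubiquitination by a CUL3 ligase. Electrophiles and oxidants modify KEAP1, NRF2 then accumulates, pairs with a small MAF protein and binds antioxidant response elements, from which BACH1 is displaced. In liver its targets supply glutathione, reduce quinones and peroxides, conjugate xenobiotics and carry conjugates out of the cell.

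Liver RNA of male mice was hybridised on 4 arrays, 1 for each group: LASS2-/- mice on a high-fat diet (LASS2-/- HFD), wild-type mice on the high-fat diet (WT HFD), LASS2-/- mice on chow (LASS2-/- chow) and wild-type mice on chow (WT chow). Per the labels, fat supplied 60% of calories in the high-fat diet and 10% in chow, the diets began at 3 weeks of age, and neither the age at death nor whether RNA of several mice was pooled is stated. LASS2 is the older name of Cers2, a ceramide synthase. The genotype ratios ask what differed with the LASS2-/- label on each diet, and the diet ratios what differed with the high-fat diet under each genotype label. With 1 array per group there is no replicate error, no p-value is given, and which neighbours in an order of levels differ beyond their spread cannot be judged.

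The knocked-out gene itself, Cers2, read 12.32 log2 on LASS2-/- HFD, 12.25 on WT HFD, 12.32 on LASS2-/- chow and 12.46 on WT chow. It was thus not lower on both LASS2-/- arrays, and which part of the transcript its single probe set reads is not given in the sources used here, so it does not check the labels. Genotype names below are those of the labels throughout, and every genotype direction rests on them. The array medians were 6.19, 6.19, 6.28 and 6.17 log2 in the same order, and between 196 (LASS2-/- chow) and 342 (LASS2-/- HFD) probe sets were listed at 0. All 11 measured hepatocyte markers, albumin among them, lay at or above the array median on every array. They summed to 315328 linear signal units on LASS2-/- HFD, 336326 on WT HFD, 380948 on LASS2-/- chow and 355337 on WT chow. The median marks the floor used here: a ratio with its lower array under the floor is a lower bound on the fold.

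Cbr3, Abcc4, Gpx2, Srxn1 and Nqo1 were highest on the LASS2-/- HFD array, at least 2-fold above each of the other 3 arrays. The other 5 genes each had both high-fat arrays above both chow arrays in their representative probe set, with WT HFD the highest for Gclc and Ephx1 and LASS2-/- HFD the highest for Txnrd1, Gclm and Hmox1. The pattern of Cbr3 held 5 of the 10 genes, against 0.512% of all genes (64 of 12493). It was noticed in these values and the genes were chosen with them known, so nothing is read from the comparison.

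**Figure D1:**
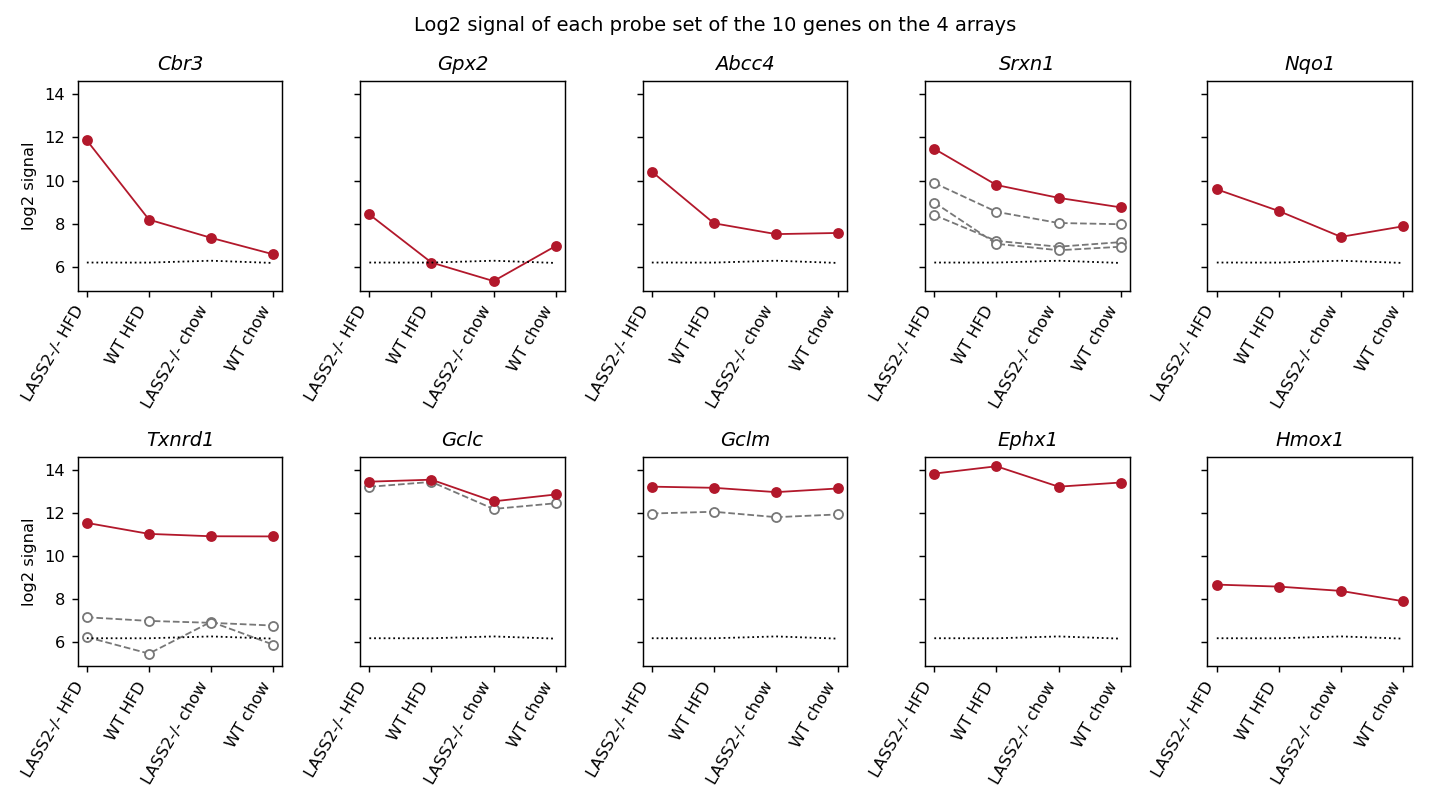
Log2 signal of the 17 probe sets of the 10 genes (vertical axis) on the 4 arrays, 1 array per group (horizontal axis). Red filled points are the probe set that represents the gene, grey open points its other probe sets, lines join points of 1 probe set, and the dotted line is the array median. Cbr3 reaches 11.86 on LASS2-/- HFD against 8.19 on WT HFD, while Gclm stays between 12.98 and 13.23.

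NRF2 binds a core of the letters TGACNNNGC or TGAGNNNGC, so the promoters of the 10 genes, as far as they were at hand, were read for both. RefSeq promoters on GRCm38.p6, from 250 bases before to 50 after a transcription start, were at hand for 8 of the 10 genes. Those of Cbr3 and Gpx2, which lead the set, are printed beside that of Srxn1, the single promoter with the most matches to both cores (3). Capitals mark a match on either strand and all other bases are in lower case, 5′ to 3′ along the gene. They lie at chr16:93682969-93683268, plus strand (Cbr3), chr12:76795505-76795804, minus strand (Gpx2) and chr2:152105274-152105573, plus strand (Srxn1).
Cbr3: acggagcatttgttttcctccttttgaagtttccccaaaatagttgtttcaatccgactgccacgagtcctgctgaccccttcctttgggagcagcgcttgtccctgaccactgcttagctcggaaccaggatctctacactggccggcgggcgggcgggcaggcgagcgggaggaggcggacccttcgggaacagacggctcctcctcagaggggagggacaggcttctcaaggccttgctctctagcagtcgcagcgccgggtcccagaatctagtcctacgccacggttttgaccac
Gpx2: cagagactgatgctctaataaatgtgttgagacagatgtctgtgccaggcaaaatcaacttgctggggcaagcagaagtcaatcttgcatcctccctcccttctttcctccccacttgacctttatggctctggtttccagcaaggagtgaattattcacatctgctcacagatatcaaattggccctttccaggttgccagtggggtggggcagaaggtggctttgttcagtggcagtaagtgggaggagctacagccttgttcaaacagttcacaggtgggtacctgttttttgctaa
Srxn1: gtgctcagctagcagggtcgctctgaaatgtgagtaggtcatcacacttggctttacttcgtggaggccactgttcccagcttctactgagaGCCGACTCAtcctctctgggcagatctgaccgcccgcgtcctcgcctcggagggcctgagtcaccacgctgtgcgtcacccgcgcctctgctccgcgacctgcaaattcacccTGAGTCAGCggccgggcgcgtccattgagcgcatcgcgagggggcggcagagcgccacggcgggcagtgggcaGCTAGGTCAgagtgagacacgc

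Srxn1 held TGAGTCAGC starting 45 bases before the start site, and matches on the other strand, GCCGACTCA and GCTAGGTCA, starting 158 bases before and 28 bases past it. None of Cbr3, Gpx2, Nqo1 and Ephx1 held either core in this window, which says only that these letters are not in these 300 bases. Counting all 11 promoters of the 8 genes, TGACNNNGC or its other strand GCNNNGTCA was found in 5, those of Srxn1, Gclm, 1 of Txnrd1 and 2 of Abcc4. Of all 32851 promoters of this length, 12.4% held it. TGAGNNNGC or GCNNNCTCA, a search added after the values were seen, was found in 2 of the 11 promoters, against 17.6% of all. The cores differ in 1 letter (C or G) and cannot match at the same place on the same strand. A match is a description of letters and not a bound site.

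Cbr3, a carbonyl reductase that acts on quinones and ketones, showed the widest range of the 10. Its log2 signal was 11.86 on LASS2-/- HFD, 8.19 on WT HFD, 7.34 on LASS2-/- chow and 6.58 on WT chow. The LASS2-/- HFD array thus stood far above the other 3, and the WT chow array was the lowest. On the high-fat diet Cbr3 was 12.8-fold higher in LASS2-/- than in WT, the largest genotype ratio of all 12493 genes on that diet, and on chow it was 1.70-fold higher. The high-fat diet over chow ratio was 23.0-fold in LASS2-/-, the fifth largest, and 3.05-fold in WT, rank 61. It was the only one of the 10 genes that was at least 1.5-fold higher in each of the 4 ratios.

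Nqo1, the NAD(P)H quinone reductase often used as a readout of NRF2, had a log2 signal of 9.59 on LASS2-/- HFD, 8.58 on WT HFD, 7.39 on LASS2-/- chow and 7.88 on WT chow. Both high-fat arrays exceeded both chow arrays, and the LASS2-/- array was the higher one on the high-fat diet and the lower one on chow. The diet ratio was 4.62-fold in LASS2-/- and 1.63-fold in WT. The genotype ratio on the high-fat diet was 2.01-fold, just past the 2-fold threshold, and it fell short of it with quantile normalization (0.96 log2). On chow Nqo1 was 1.41-fold lower in LASS2-/-.

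Gpx2 encodes a selenium-dependent glutathione peroxidase best known from gut epithelium. It had a log2 signal of 8.43 on LASS2-/- HFD, 6.19 on WT HFD, 5.33 on LASS2-/- chow and 6.96 on WT chow. LASS2-/- HFD thus lay clearly above the array median and WT chow less far above it, while WT HFD lay at it and LASS2-/- chow below it. The genotype ratio was 4.70-fold higher on the high-fat diet but at least 1.60-fold lower on chow. In the same way the high-fat diet signal was at least 4.43-fold above chow in LASS2-/- and 1.70-fold below it in WT. Gpx2 was the only member with ratios of at least 1.5-fold in opposite directions. The bounds depend on the floor: at the 25th percentile of each array the chow genotype ratio was -1.63 log2 and the diet ratio in LASS2-/- 3.09 log2, in place of -0.68 and 2.15.

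Srxn1, sulfiredoxin, repairs overoxidised peroxiredoxins, and 4 probe sets measured it. The representative one had a log2 signal of 11.47 on LASS2-/- HFD, 9.79 on WT HFD, 9.20 on LASS2-/- chow and 8.76 on WT chow. Each of the 4 was highest on LASS2-/- HFD, with genotype ratios on the high-fat diet from 2.30-fold to 3.78-fold and diet ratios in LASS2-/- from 2.77-fold to 4.84-fold. In WT they spread more: the diet ratio was 2.05-fold in the representative probe set and 1.04-fold, 1.10-fold and 1.49-fold in the other 3. The 2-fold call in WT therefore depends on the probe set, and the mean of the 4 gave 0.45 log2. On chow the genotype ratios of the 4 ran from 1.16-fold lower to 1.36-fold higher.

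Txnrd1 encodes cytosolic thioredoxin reductase, which keeps thioredoxin reduced. Its representative probe set read 11.55 log2 on LASS2-/- HFD, 11.04 on WT HFD, 10.93 on LASS2-/- chow and 10.92 on WT chow. Only the LASS2-/- HFD array departed from the other 3, by 1.42-fold over WT HFD and 1.54-fold over LASS2-/- chow. A second probe set gave 1.12-fold and 1.20-fold for the same ratios. The third lay under the median on both WT arrays and had its highest signal on LASS2-/- chow.

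Gclc and Gclm encode the catalytic and the modifier subunit of glutamate-cysteine ligase, which makes the rate-limiting step of glutathione synthesis. Gclc had a log2 signal of 13.46 on LASS2-/- HFD, 13.55 on WT HFD, 12.55 on LASS2-/- chow and 12.87 on WT chow. The diet separated its arrays and the genotype did not on the high-fat diet: high-fat over chow was 1.88-fold in LASS2-/- and 1.61-fold in WT, and LASS2-/- was 1.07-fold lower than WT on the high-fat diet. Its second probe set gave 2.04-fold and 1.99-fold for the diet ratios. Gclm had a log2 signal of 13.23 on LASS2-/- HFD, 13.18 on WT HFD, 12.98 on LASS2-/- chow and 13.15 on WT chow. In both of its probe sets all 4 ratios were at most 1.19-fold in either direction, so the subunits of this enzyme differed in how far their signals moved with the diet.

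Hmox1, heme oxygenase 1, breaks heme down to biliverdin, carbon monoxide and iron, and Kupffer cells are a known source of it in liver. Its log2 signal was 8.68 on LASS2-/- HFD, 8.59 on WT HFD, 8.39 on LASS2-/- chow and 7.91 on WT chow. The WT chow array was the lowest, and the other 3 lay close together. Diet ratios were 1.22-fold in LASS2-/- and 1.60-fold in WT, and genotype ratios 1.07-fold on the high-fat diet and 1.39-fold on chow. Beside this, the 13 measured macrophage and Kupffer cell markers of 14 listed summed to 39409 linear signal units on LASS2-/- HFD, 26361 on WT HFD, 32990 on LASS2-/- chow and 26703 on WT chow. All 13 lay at or above the median on every array. On the high-fat diet 12 of the 13 were higher in LASS2-/- than in WT, with Marco the furthest at 8.44-fold, and Cd163 was 2.08-fold lower. On chow 11 of the 13 were higher. Of all 12493 genes, 6785 were higher on the high-fat diet and 6819 on chow, where genes under the floor on both arrays count as higher. The part of these markers in the Hmox1 signal was not tested. In such whole-tissue RNA, more cells of a type and more RNA per cell cannot be told apart.

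Abcc4, or MRP4, a transporter that exports conjugates across the basolateral hepatocyte membrane, had a log2 signal of 10.41 on LASS2-/- HFD, 8.02 on WT HFD, 7.51 on LASS2-/- chow and 7.57 on WT chow. The chow arrays were nearly equal, with LASS2-/- 1.04-fold lower, and LASS2-/- HFD stood apart. The genotype ratio on the high-fat diet was 5.27-fold, and the diet ratio was 7.47-fold in LASS2-/- against 1.37-fold in WT. Its related transporter Abcc3 did not share this order, with 12.30, 12.60, 10.90 and 11.67 log2 on LASS2-/- HFD, WT HFD, LASS2-/- chow and WT chow. There the WT array was the higher one on each diet. Another relative, Abcc1, was also highest on LASS2-/- HFD, with 8.01, 7.03, 7.09 and 7.01 log2 in the same array order.

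Ephx1, microsomal epoxide hydrolase, also responds to the nuclear receptor CAR. It had a log2 signal of 13.84 on LASS2-/- HFD, 14.18 on WT HFD, 13.23 on LASS2-/- chow and 13.42 on WT chow. Both high-fat arrays exceeded both chow arrays, by 1.52-fold in LASS2-/- and 1.69-fold in WT, and the LASS2-/- array was lower than WT on each diet, by 1.27-fold on the high-fat diet and 1.14-fold on chow.

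**Figure D2:**
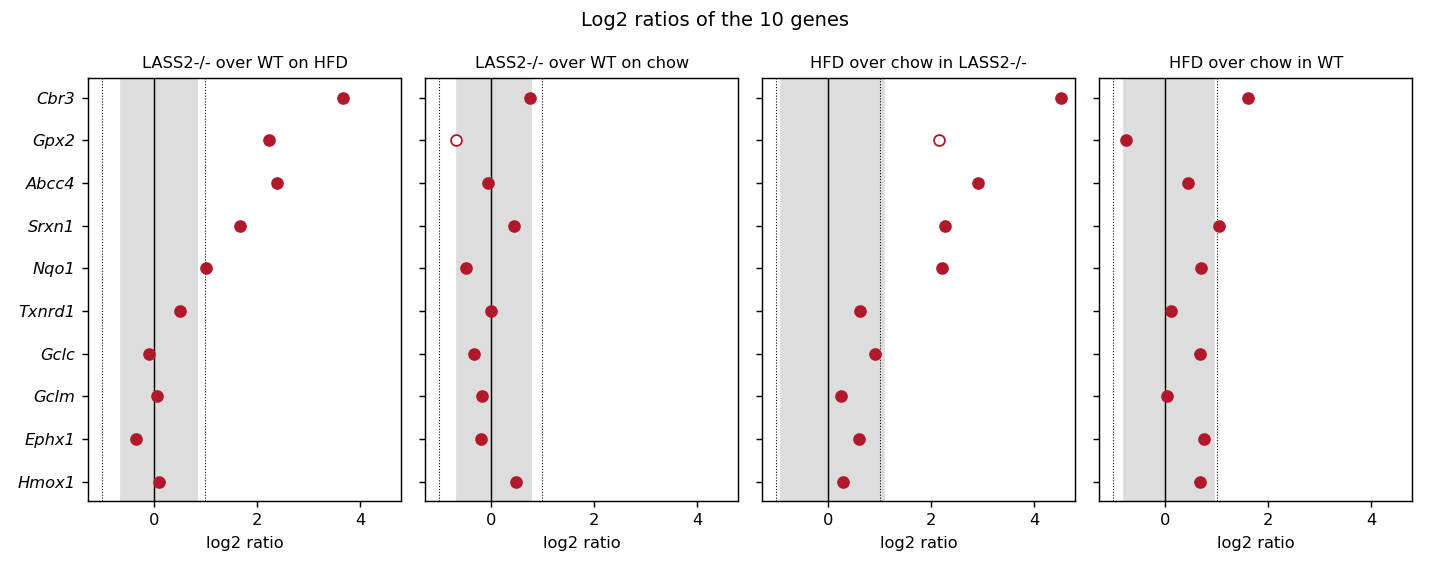
Log2 ratios of the 10 genes (horizontal axis, 0 means equal) in the 4 comparisons, 1 panel each. Filled points are measured on both arrays, open points are bounds, dotted lines mark 2-fold and the grey band holds the middle 95% of all 12493 genes. On the high-fat diet 5 genes lie beyond 2-fold in the genotype panel, and on chow none do.

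Counted over the set, 5 of the 10 genes were at least 2-fold higher and 0 lower in LASS2-/- than in WT on the high-fat diet, where 1.47% of all genes were higher and 0.488% lower. On chow the genotype counts were 0 and 0, against 1.16% and 0.424% of all genes. With the high-fat diet, 5 were at least 2-fold higher and 0 lower in LASS2-/-, against 3.11% and 1.89%, and 2 and 0 in WT, against 2.13% and 1.24%. The set's median log2 ratio was 0.76 for the genotype on the high-fat diet, -0.11 for the genotype on chow, 1.53 for the diet in LASS2-/- and 0.68 for the diet in WT. Over all genes these medians were 0.00, 0.03, -0.01 and 0.02. The values 0.00 and 0.02 are those taken by genes under the floor on both arrays, so flooring sets them.

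At 1.5-fold, 5 genes were higher and 0 lower for the genotype on the high-fat diet, with 5.73% and 3.32% of all genes, and 1 higher and 1 lower on chow, with 5.68% and 3.35%. For the diet, 8 were higher and 0 lower in LASS2-/-, with 10.1% and 7.2% of all genes, and 6 higher and 1 lower in WT, with 7.71% and 5.11%. The values that chose the set are the ones counted, so no excess over these shares is taken as a result. No array enters both genotype ratios or both diet ratios, but a genotype ratio and a diet ratio have 1 array in common.

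The genotype ratios on the 2 diets were also set against each other. The log2 genotype ratio on the high-fat diet minus that on chow was 2.91 for Cbr3 and 2.45 for Abcc4. For Gpx2 it was at least 2.92, a bound set by the floor because LASS2-/- chow lay under it. For Nqo1 and Srxn1 the same difference came to 2.83-fold and 2.36-fold. On the log2 scale Txnrd1 had 0.50, Gclc 0.23 and Gclm 0.22, whereas Ephx1 had -0.15 and Hmox1 -0.39. This difference was not tested, since it rests on 4 single arrays.

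**Figure D3:**
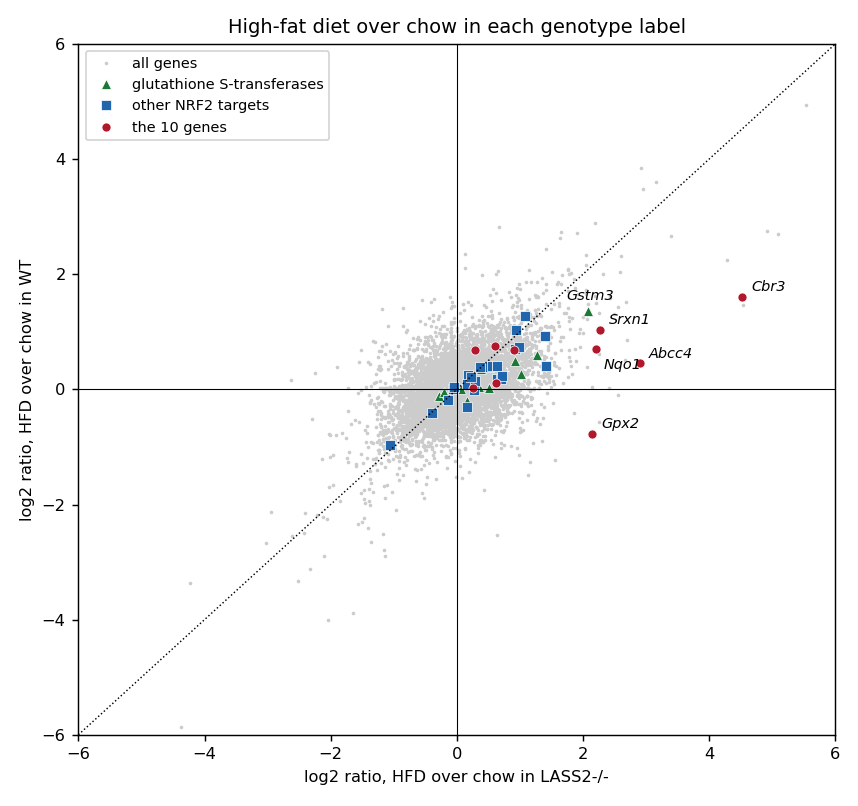
Log2 ratio of high-fat diet over chow in LASS2-/- (horizontal axis) and in WT (vertical axis) for all genes (grey), 25 other NRF2 targets (blue squares), 11 glutathione S-transferases (green triangles) and the 10 genes (red circles). The dotted diagonal marks equal ratios. Cbr3, Abcc4, Srxn1, Nqo1 and Gpx2 lie below it, with Cbr3 at 4.52 in LASS2-/- and 1.61 in WT.

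Transcripts of the regulators of the pathway were read as well. Nfe2l2 had a log2 signal of 12.28 on LASS2-/- HFD, 12.11 on WT HFD, 11.69 on LASS2-/- chow and 11.94 on WT chow, which is a diet ratio of 1.51-fold in LASS2-/- and 1.12-fold in WT. Its second probe set moved further with the diet, 2.20-fold higher in LASS2-/- and 1.72-fold in WT. In it LASS2-/- lay below WT on both diets, by 1.40-fold on the high-fat diet and 1.78-fold on chow. Keap1 read 10.17 on LASS2-/- HFD, 10.09 on WT HFD, 10.00 on LASS2-/- chow and 10.00 on WT chow. NRF2 is controlled mainly through its protein, which these arrays do not measure.

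Bach1, the repressor that competes for the same elements, was lower on both high-fat arrays. It had 11.22 log2 on LASS2-/- HFD, 11.26 on WT HFD, 12.35 on LASS2-/- chow and 11.97 on WT chow, or 2.20-fold lower with the diet in LASS2-/- and 1.63-fold lower in WT, and both of its probe sets were lower. Maff, a small MAF protein, read 7.71 on LASS2-/- HFD, 8.76 on WT HFD, 9.07 on LASS2-/- chow and 8.70 on WT chow. LASS2-/- HFD was the lowest array, 2.07-fold below WT HFD and 2.57-fold below LASS2-/- chow. Of the 14 regulators measured of 14 listed, these were the 2 past 2-fold in any ratio by their representative probe sets. At least 2-fold lower were 1.89% of all genes for the diet in LASS2-/- and 0.488% for the genotype on the high-fat diet.

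The wider list of NRF2 targets, with glutathione S-transferases kept apart, had 33 genes, of which 25 entered. In LASS2-/- 3 of the 25 were at least 2-fold higher and 1 lower with the high-fat diet, against 3.11% and 1.89% of all genes. In WT these counts were 2 and 0, against 2.13% and 1.24%. For the genotype 0 were past 2-fold in either direction on either diet by their representative probe sets. Of all genes, 1.47% were higher and 0.488% lower on the high-fat diet, and 1.16% and 0.424% on chow. At 1.5-fold, 11 were higher and 1 lower with the diet in LASS2-/-, against 10.1% and 7.2% of all genes. In WT 5 were higher and 1 lower, against 7.71% and 5.11%. The median log2 diet ratio was 0.51 in LASS2-/- and 0.23 in WT, and the median log2 genotype ratio 0.09 on the high-fat diet and -0.09 on chow, beside the medians of all genes above. With arrays scaled to equal medians 6 were 2-fold higher and 0 lower with the diet in LASS2-/-. None of the 25 was at least 2-fold higher on LASS2-/- HFD than on each other array. At a share of 0.512% of all genes, nothing is read from this count.

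Pgd, which makes NADPH in the pentose phosphate pathway, had a log2 signal of 12.44 on LASS2-/- HFD, 11.53 on WT HFD, 11.02 on LASS2-/- chow and 11.12 on WT chow. It was 2.67-fold higher with the diet in LASS2-/-, and its 4 probe sets were all highest on LASS2-/- HFD. On the high-fat diet the 4 were 1.78-fold to 2.37-fold higher in LASS2-/- than in WT, with 1.88-fold in the representative one. On chow they were 1.01-fold to 1.47-fold lower. Aox1, an aldehyde oxidase, was 2.11-fold higher with the diet in LASS2-/- and 2.41-fold in WT. Abcc3, described above, was 2.65-fold higher with the diet in LASS2-/- and 1.91-fold in WT. Entpd5, an endoplasmic reticulum nucleotidase, was 1.92-fold higher in LASS2-/- and 2.04-fold in WT. Its other probe sets that reached the median gave 1.80-fold to 2.31-fold in LASS2-/- and 1.67-fold to 2.54-fold in WT. Adh7, an alcohol dehydrogenase of stomach, was the 1 lower gene, 2.09-fold with the diet in LASS2-/- against 1.96-fold in WT. Its second probe set was 1.24-fold lower in LASS2-/-, and the mean of both did not pass 2-fold. For the genotype on the high-fat diet Adh7 was 1.63-fold higher in LASS2-/-, and 2.43-fold by its second probe set. On chow these ratios were 1.74-fold and 1.70-fold higher.

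Of 13 glutathione S-transferases listed, 11 entered. With the high-fat diet 3 were at least 2-fold higher and 0 lower in LASS2-/-, against 3.11% and 1.89% of all genes. In WT these counts were 1 and 0, against 2.13% and 1.24%. The median log2 diet ratios were 0.38 in LASS2-/- and 0.04 in WT, and the median log2 genotype ratios 0.19 on the high-fat diet and -0.01 on chow. Gstm3 followed the order of Cbr3, with a log2 signal of 13.86 on LASS2-/- HFD, 12.46 on WT HFD, 11.79 on LASS2-/- chow and 11.10 on WT chow. It was the 1 of the 11 transferases past 2-fold for the genotype, 2.65-fold higher in LASS2-/- than in WT on the high-fat diet. At least 2-fold higher in that ratio were 1.47% of all genes. The second probe set of Gstm3 gave the same direction in all 4 ratios. Gsta2 was 2.42-fold and Gstm2 2.02-fold higher with the diet in LASS2-/-, against 1.52-fold and 1.20-fold in WT. These enzymes have close relatives whose transcripts a probe set may share.

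Among the 19 listed relatives of the 10 genes in their protein families, 18 entered, with Abcc2, Abcc3 and Cbr1 also on the wider target list. Only Abcc3 was past 2-fold in any ratio, 1 of the 18 for the diet in LASS2-/-, against 3.11% of all genes. Below that threshold, Abcc1 and Gpx7 were 1.97-fold and 1.91-fold higher in LASS2-/- than in WT on the high-fat diet. Their diet ratios in LASS2-/- were 1.90-fold and 1.80-fold. Of the 18, 12 were below 0 in the genotype ratio on the high-fat diet, where 5708 of all 12493 genes were. The list's median log2 ratio was -0.09 for the genotype on the high-fat diet and -0.12 on chow, and 0.43 for the diet in LASS2-/- and 0.05 in WT. Cbr1, the neighbouring carbonyl reductase, read 12.33 on LASS2-/- HFD, 12.20 on WT HFD, 11.62 on LASS2-/- chow and 12.01 on WT chow, a far narrower range than that of Cbr3.

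Other receptors also act on some of the 10 genes. Of 7 listed genes of the aryl hydrocarbon receptor, which shares Nqo1 as a target, 5 entered. Only Ahr itself was past 2-fold, 3.03-fold higher with the diet in LASS2-/- and 3.63-fold in WT. At least 2-fold higher were 3.11% and 2.13% of all genes. Of 12 listed genes of the receptors CAR and PXR, 11 entered and all 11 were below 0 in the genotype ratio on the high-fat diet, with a median of -0.49 log2, where 5708 of all 12493 genes were below 0. Of these, Cyp2b13 was 4.13-fold lower in LASS2-/-, Cyp2c37 2.65-fold and Cyp2b9 2.29-fold. With the diet, 2 of the 11 were at least 2-fold higher in LASS2-/-, against 3.11% of all genes, and 4 in WT, against 2.13%, among them Cyp2b9 at 7.53-fold in LASS2-/- and 14.4-fold in WT, and Cyp2b10 at least 3.39-fold and at least 4.23-fold. Cyp2b13 was at least 1.60-fold higher with the diet in LASS2-/- and at least 7.08-fold in WT. Gadd45b was 1.07-fold higher in LASS2-/- and 2.81-fold in WT, and its 3 probe sets disagreed. Of 14 listed genes around heme, 13 entered and 1, the scavenger receptor Cd163, was past 2-fold. It was 2.08-fold lower in LASS2-/- than in WT on the high-fat diet, where 0.488% of all genes were at least 2-fold lower.

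Markers of other cell types were read beside these values. The 3 measured cholangiocyte markers of 8 listed summed to 289 linear signal units on LASS2-/- HFD, 209 on WT HFD, 299 on LASS2-/- chow and 262 on WT chow, and Krt7, Cftr and Muc1 lay under the floor on all 4 arrays. Of the 6 listed markers of intestinal epithelium, where Gpx2 is abundant, 4 entered, with sums of 11649 on LASS2-/- HFD, 14552 on WT HFD, 9707 on LASS2-/- chow and 10156 on WT chow, and the defining genes Vil1 and Cdx1 were under the floor on all arrays. Fabp2, at 13.43 log2 on LASS2-/- HFD and 13.80 on WT HFD, made up most of that sum. The other 3 were higher in LASS2-/- than in WT on the high-fat diet, Tff3 by at least 3.18-fold, Lgr5 by 1.15-fold and Cdx2 by at least 1.14-fold. Tff3 was highest on LASS2-/- chow, at 10.08 log2. The part of these genes in the Gpx2 signal was not tested. Endothelial markers summed to 9495 on LASS2-/- HFD and 10092 on WT HFD, against 9154 on LASS2-/- chow and 8695 on WT chow. Stellate cell markers summed to 20600 on LASS2-/- HFD and 22390 on WT HFD, against 15952 on LASS2-/- chow and 16363 on WT chow. Lymphocyte markers, 6 measured of 8 listed, summed to 2554 on LASS2-/- HFD, 6644 on WT HFD, 2732 on LASS2-/- chow and 2683 on WT chow. Ighm, at 12.41 log2 on WT HFD, made up most of the sum there. On the high-fat diet Ighm was 2.91-fold and Jchain 2.47-fold lower in LASS2-/- than in WT, and Cd79b was 1.24-fold higher. Cd3g lay under the median on 3 arrays. The macrophage sum given beside Hmox1 was the 1 sum of these 6 that was highest on LASS2-/- HFD and its part in the values of the 10 genes was not tested.

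The genes nearest to Cbr3 were sought by the Euclidean distance between log2 signals, floored and centred on each gene's mean, over the 4 arrays. The nearest was Ctse, cathepsin E, at a distance of 0.37 log2, with 11.04 on LASS2-/- HFD, 7.64 on WT HFD, 6.51 on LASS2-/- chow and 5.85 on WT chow. Ubd (0.48), Ly6d (1.15) and Lcn2 (1.20) came next, and Abcc4 was the fifth (1.76). The second probe set of Ctse did not show this, with its highest signal on LASS2-/- chow at 6.75. For Gpx2 the nearest was Oasl1 (0.18), with 9.48 on LASS2-/- HFD, 7.19 on WT HFD, 7.23 on LASS2-/- chow and 7.77 on WT chow. Zbp1 (0.61), Ifit2 (0.70), Cmpk2 (0.71) and Serpinb1a (0.73) followed. These distances depend on the floor, at which Gpx2 entered on LASS2-/- chow, Ctse and Ubd on WT chow and Serpinb1a on 2 arrays. The second probe set of Zbp1 was at least 1.83-fold higher in LASS2-/- on chow, against 1.01-fold in the one used. That of Cmpk2 lay under the median on both chow arrays. The leading pair thus had different nearest genes, and over 4 arrays such likeness is a description only.

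**Figure D4:**
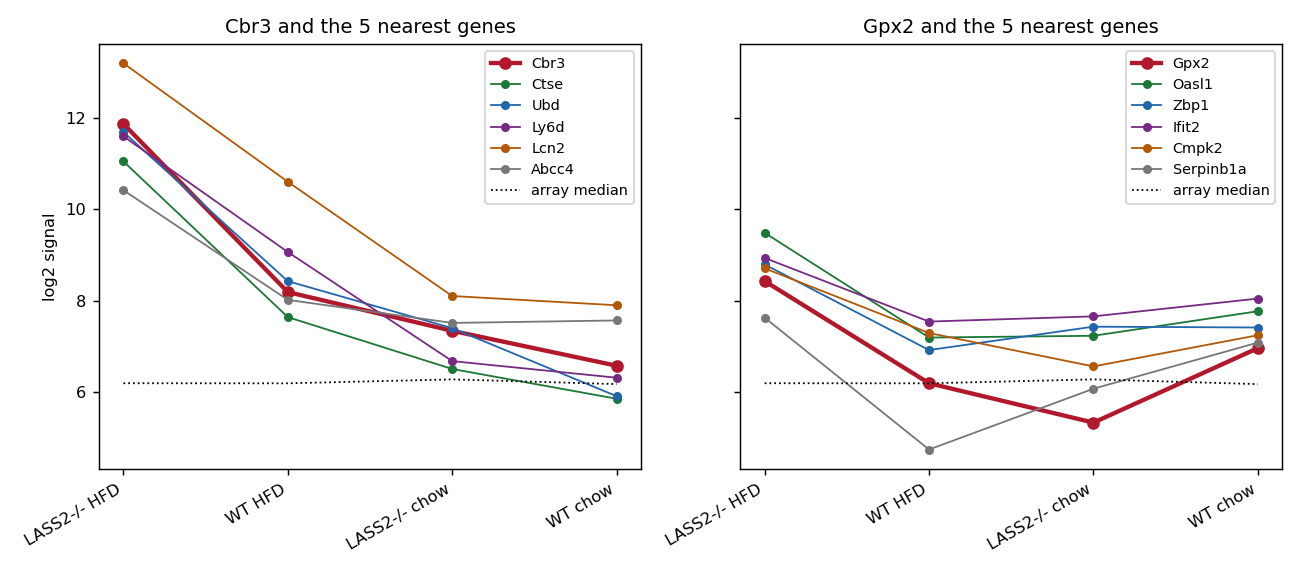
Log2 signal (vertical axis) on the 4 arrays (horizontal axis) of Cbr3 (left) and Gpx2 (right), each in thick red, with the 5 genes nearest in pattern in thin lines and the array median dotted. Each line is 1 probe set on 1 array per group. The Cbr3 group descends from LASS2-/- HFD to WT chow except in Abcc4, whose chow values are 7.51 and 7.57, while Gpx2 turns up again on WT chow at 6.96.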

How the data were processed

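The authors deposited 1 log2 signal per probe set and array, made with MAS5 per the submitters' processing notes. Its version and scaling target are not stated there. The trimmed means of the arrays, 2% of probe sets left out at each end, were nearly equal (496.0 to 496.2 linear), so no scaling was added. Platform gene numbers were joined to RefSeq symbols of GRCm38.p6: 34945 probe sets had 1 symbol, 932 several and 9160 were not named here.

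A gene was represented by its probe set of highest mean among those reaching the array median on at least 1 array. Arrays were floored at their median before ratios were taken, and a difference of 2-fold was counted. No test was run, as each group has 1 array. The number of arrays limits the precision. The 10 genes, the 17 lists (191 genes, 157 entering, 18 with no probe set of their own) and the rules were chosen with earlier results of these data known. Named were the 10 genes, list genes past 2-fold in any ratio, at most 6 per list and ratio, Nfe2l2, Keap1, Bach1 and Cers2 in any case, and the 5 genes nearest to Cbr3 and to Gpx2. Cbr1, Abcc1, Gpx7 and single markers were named after their values were seen. The text leaves out most past-threshold members of cell type lists, which are summed instead. The alternatives were equal medians, quantile normalization, a floor at the 25th percentile, the mean of probe sets, no _x_at or _s_at probe sets and a 1.5-fold threshold. The ratio code was tested on simulated data. Scripts ran in Python 3.11.15 with pandas 2.3.3 and numpy 2.4.6, and figures were drawn with matplotlib 3.10.9.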

Additional observations from a re-analysis of the deposited data

Results flagged for a closer look

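Gpx2 moved in opposite directions under both contrasts. Its log2 genotype ratio was 2.23 on the high-fat diet and -0.68 on chow, where the second is a bound. Its log2 diet ratio was 2.15 in LASS2-/-, also a bound, and -0.77 in WT. These differences were not tested, and 1 array carries each group.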

How the results depend on the processing

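Recomputed under the 5 settings that change values, 197 log2 ratios of the 10 genes moved by less than 1.5-fold, and 0 of those past 2-fold changed sign. The 3 that moved further were Gpx2 with the floor at the 25th percentile (-1.63 for the genotype on chow and 3.09 for the diet in LASS2-/-) and Srxn1 with the mean of probe sets (0.45 for the diet in WT). With quantile normalization 4 in place of 5 genes were 2-fold higher in LASS2-/- on the high-fat diet, without Nqo1, and 4 in place of 5 were 2-fold above each other array on LASS2-/- HFD.

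For the 10 genes, the floor at the 25th percentile put 1 at 2-fold lower for the genotype on chow, and the mean of probe sets, or leaving out _x_at and _s_at probe sets, left 1 higher with the diet in WT in place of 2. At 1.5-fold the counts were 1 higher and 1 lower for the genotype on chow, 6 higher and 1 lower for the diet in WT and 8 higher for the diet in LASS2-/-. For the other NRF2 targets, equal medians gave 6 higher and 0 lower for the diet in LASS2-/-, and the mean of probe sets gave 5 and 0 there and 1 higher for the genotype on the high-fat diet. The floor at the 25th percentile gave 1 higher for the genotype on chow and 2 lower for the diet in LASS2-/-. At 1.5-fold these targets had 2 higher and 1 lower for the genotype on chow, against 5.68% and 3.35% of all genes. For the genotype on the high-fat diet 3 were higher and 0 lower, against 5.73% and 3.32%. For the diet 5 were higher and 1 lower in WT and 11 higher in LASS2-/-, with the shares given above. Shares of all genes under the settings that change values are not given, so nothing is read from the counts there. The cause of these shifts was not tested beyond what each setting changes by construction. With 1 array per group no array could be left out, and signals near the array median, as in Gpx2, set only bounds. Equal medians put the median of all genes at -0.07 log2 for the genotype on chow, against 0.03, and at 0.08 for the diet in LASS2-/-, against -0.01.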
